A study of Mus musculus with 15 samples.

Results

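The genes described here encode the growth factors and receptors through which endothelial cells and mural cells of blood vessels act on each other: Pdgfa, Pdgfb, Pdgfrb, Angpt1, Angpt2, Tek, Tie1, Vegfa, Kdr and Flt1. They were chosen by symbol, taking every probe set that the array annotation pairs with that symbol alone. This gave 10 genes of 18194 and 19 probe sets of 45101, with 7 genes carrying several probe sets. RNA came from male C57BL6J mice aged 10 to 12 weeks, and Affymetrix mouse arrays gave 1 scaled intensity per probe set and array. The groups were FACS-sorted brain cells labelled SMC/pericyte from Notch3 -/- mice (5 arrays) and Notch3 +/- mice (4 arrays), and aorta explants of Notch3 -/- (3 arrays) and Notch3 +/- genotype (3 arrays). Every mouse therefore carried at least 1 disrupted Notch3 copy in all its cells, and no wild-type arrays were analysed here. The design text counts 1 mouse per brain array. The labels do not say whether each aorta array is a mouse of its own, so aorta p-values reflect spread among these samples, which may be technical. Sorted brain cells went straight into kit lysis buffer, whereas Trizol was the first step for aorta explants, so tissue, sorting and extraction cannot be told apart.

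In vessels, endothelial cells secrete PDGF-B, which recruits and keeps mural cells through the receptor PDGFR-beta, and this pair is needed for pericyte coverage of brain capillaries. Angiopoietin-1, made largely by mural cells, activates the endothelial receptor Tie2 (gene Tek), while angiopoietin-2 is made by endothelium and can act as its antagonist. VEGF-A acts on endothelium through VEGFR2 (Kdr), its main signalling receptor, and VEGFR1 (Flt1), which binds VEGF-A tightly and limits its action. Notch3 is a receptor of vascular smooth muscle cells and pericytes.

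Notch3 itself read 210 ± 37.0 (SD, n = 5) in Notch3 -/- brain cells and 2616 ± 222 (n = 4) in Notch3 +/- brain cells at its brighter probe set, and 108 ± 34.1 and 401 ± 47.2 in Notch3 -/- and Notch3 +/- aorta (n = 3 each). The arrays of each genotype did not overlap in either tissue (log2 -3.56, limma adjusted p = 4.31e-08 in brain; log2 -1.78, adjusted p = 0.135 in aorta). The labels do not place these probes relative to the targeted exons.

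The brain arrays carried strong signal of endothelium, oligodendrocytes and astrocytes beside that of mural cells. Of 21 endothelium markers on the array, a list that holds none of the 10 genes, 18 were higher and 2 lower in brain than in aorta among Notch3 -/- arrays, and 19 and 2 among Notch3 +/- arrays. Over the 18 above the brightness filter (the brighter part of all probe sets, by mean) within each tissue, the counts were 15 and 2, and 16 and 2. Their summed level was 65742 to 80224 in Notch3 -/- brain and 60083 to 75681 in Notch3 +/- brain, against 6028 to 6475 in Notch3 -/- aorta and 5444 to 6647 in Notch3 +/- aorta. None of the 21 had a mean under 16 in brain, while Slco1c1 and Mfsd2a, transport genes of brain endothelium, were under 16 in both aorta groups. Much of the sum came from bright genes such as Slco1a4 and Cldn5. These averaged 18528 and 15019 in Notch3 -/- brain, against 12.7 and 299 in Notch3 -/- aorta. The median difference over the 21 was log2 1.93 among Notch3 -/- arrays and 2.58 among Notch3 +/- arrays. Mural markers (20 on the array) were present in both tissues, with 7 called higher and 9 lower in brain among Notch3 -/- arrays, and 9 higher and 7 lower among Notch3 +/- arrays (3 and 9, and 5 and 7, of 15 above the filter within each tissue). Their summed level ran from 39626 to 49691 in Notch3 -/- brain and from 57124 to 88428 in Notch3 +/- brain, with no overlap, and the contractile genes Tagln, Myh11 and Myl9 were the 3 of 19 tested that passed as lower in Notch3 -/- brain. Of the 19, 4 had a difference above 0 (median log2 -0.41) and 8 an unadjusted limma p under 0.05. Over all probe sets tested in brain, 0.12% were called lower and 9.39% had an unadjusted p under 0.05. Fibroblast markers (12 on the array) were summed at 9698 to 14367 in Notch3 -/- brain and 6646 to 9705 in Notch3 +/- brain; of 11 tested there, 9 had a difference above 0 (median log2 0.53) and 6 an unadjusted p under 0.05, and none passed by limma. Between tissues 11 of the 12 were lower and 1 higher in brain in both genotypes, and 10 of the 10 above the filter within each tissue were lower. Over all probe sets tested, 33.6% were higher and 28.9% lower in brain among Notch3 -/- arrays, and 26.5% and 25.2% among Notch3 +/- arrays. Markers of oligodendrocytes and astrocytes were higher in brain in both genotypes, in 3 of 3 and 7 of 7 cases above the brightness filter within each tissue. Another 5 of each list were tested and called higher, but had passed the filter only through their brain arrays. Oligodendrocyte markers (9 on the array) were summed at 35031 to 48572 in Notch3 -/- brain and 30800 to 42472 in Notch3 +/- brain. Astrocyte markers (12 on the array) were summed at 22880.5 to 38592 in Notch3 -/- brain and 15134 to 37655 in Notch3 +/- brain. The lists differ in length, and the part of glial RNA in the levels below was not tested. Immediate early genes above the filter within each tissue were higher in brain in 15 of 16 cases among Notch3 -/- arrays, with 1 lower. Among Notch3 +/- arrays the count was 14 of 16, with 1 lower, and the part of sorting in this was not tested. In bulk RNA, fewer cells of a type and less RNA per cell cannot be told apart, which touches every level below.

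Promoter windows are shown for genes on which the results turn: Pdgfa, the gene with a called genotype difference, and Flt1, Kdr and Tie1, endothelial receptors that were higher in brain. They are the 250 bases before an annotated start in RefSeq (build GRCm38.p6), 5′ to 3′ on the minus strand in each case, and RefSeq also holds starts farther upstream for Pdgfa, Flt1 and Kdr. Capitals mark matches to the core bound by RBPJ, the DNA-binding partner of Notch receptors (TGGGAA, or TTCCCA on the other strand), and to the ETS core (AGGAAG, or CTTCCT).
Pdgfa, chr5:138994945-138995194: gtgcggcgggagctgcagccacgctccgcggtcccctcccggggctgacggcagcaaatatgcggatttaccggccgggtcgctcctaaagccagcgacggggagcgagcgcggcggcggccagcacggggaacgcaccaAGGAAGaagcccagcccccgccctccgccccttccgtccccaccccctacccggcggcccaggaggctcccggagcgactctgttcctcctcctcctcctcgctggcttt
Flt1, chr5:147726012-147726261: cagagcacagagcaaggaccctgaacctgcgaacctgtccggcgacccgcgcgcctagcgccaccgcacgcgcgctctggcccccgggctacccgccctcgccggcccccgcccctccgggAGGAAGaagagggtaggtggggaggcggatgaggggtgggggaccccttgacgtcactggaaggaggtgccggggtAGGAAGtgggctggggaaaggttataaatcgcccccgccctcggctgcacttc
Kdr, chr5:75978456-75978705: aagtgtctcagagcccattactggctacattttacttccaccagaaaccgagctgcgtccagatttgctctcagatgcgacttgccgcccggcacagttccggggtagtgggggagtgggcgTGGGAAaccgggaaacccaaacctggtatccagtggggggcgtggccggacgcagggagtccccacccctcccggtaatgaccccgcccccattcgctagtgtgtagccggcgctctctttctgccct
Tie1, chr4:118489850-118490099: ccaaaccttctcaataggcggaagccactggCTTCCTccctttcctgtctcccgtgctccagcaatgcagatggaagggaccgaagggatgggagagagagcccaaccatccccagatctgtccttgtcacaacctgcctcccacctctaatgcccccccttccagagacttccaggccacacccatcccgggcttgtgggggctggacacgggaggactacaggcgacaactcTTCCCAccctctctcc
The Pdgfa window held 1 ETS core at -110 and no RBPJ core. A second RefSeq window of Pdgfa held an RBPJ core at -13. Flt1 had ETS cores at -129 and -53, Kdr an RBPJ core at -128, and Tie1 an ETS core at -219 and an RBPJ core at -16, both on the other strand. The Tek window held neither. Over 32851 windows of this length, searched on both strands, 21.6% held an RBPJ core, 29.5% an ETS core and 16.6% the core of the hypoxia element (ACGTG, or CACGT), which was in none of the windows of these 5 genes and in 1 of the 2 windows of Vegfa. No match of 1 core overlapped a match of another. These are matches of letters only.

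Between genotypes in brain, most of the 10 genes showed no called difference, and Pdgfa was the exception at 1 of its probe sets. Values were compared as log2(value + 16), which understates changes of dim probe sets, by limma over all 22519 probe sets above the brightness filter, with Benjamini-Hochberg adjustment at 5%. At the brightest probe set of each gene, 0 of 10 passed, and 0 had an unadjusted p under 0.05; over all 16 tested probe sets 1 passed, as lower. The background was 0.142% of probe sets called in either direction, 0.12% as lower and 0.0222% as higher, and 9.39% with an unadjusted p under 0.05. The median difference over the 10 was log2 -0.08, against 0.01 over all probe sets tested. Of 19 probe sets, 3 dim ones (of Pdgfb, Angpt1 and Angpt2) fell under the filter. In simulated brain data 56% of probe sets changed 2-fold and 80% of those changed 4-fold were recovered. The simulation gave each probe set a spread pooled over brain and aorta arrays, so recovery at the spread of brain alone is not known. It also held 100 probe sets changed 2-fold and 100 changed 4-fold, and gave 147 calls, against 32 in the real brain arrays. More calls loosen the adjusted cutoff, so recovery at the real cutoff is not known either.

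**Figure D1:**
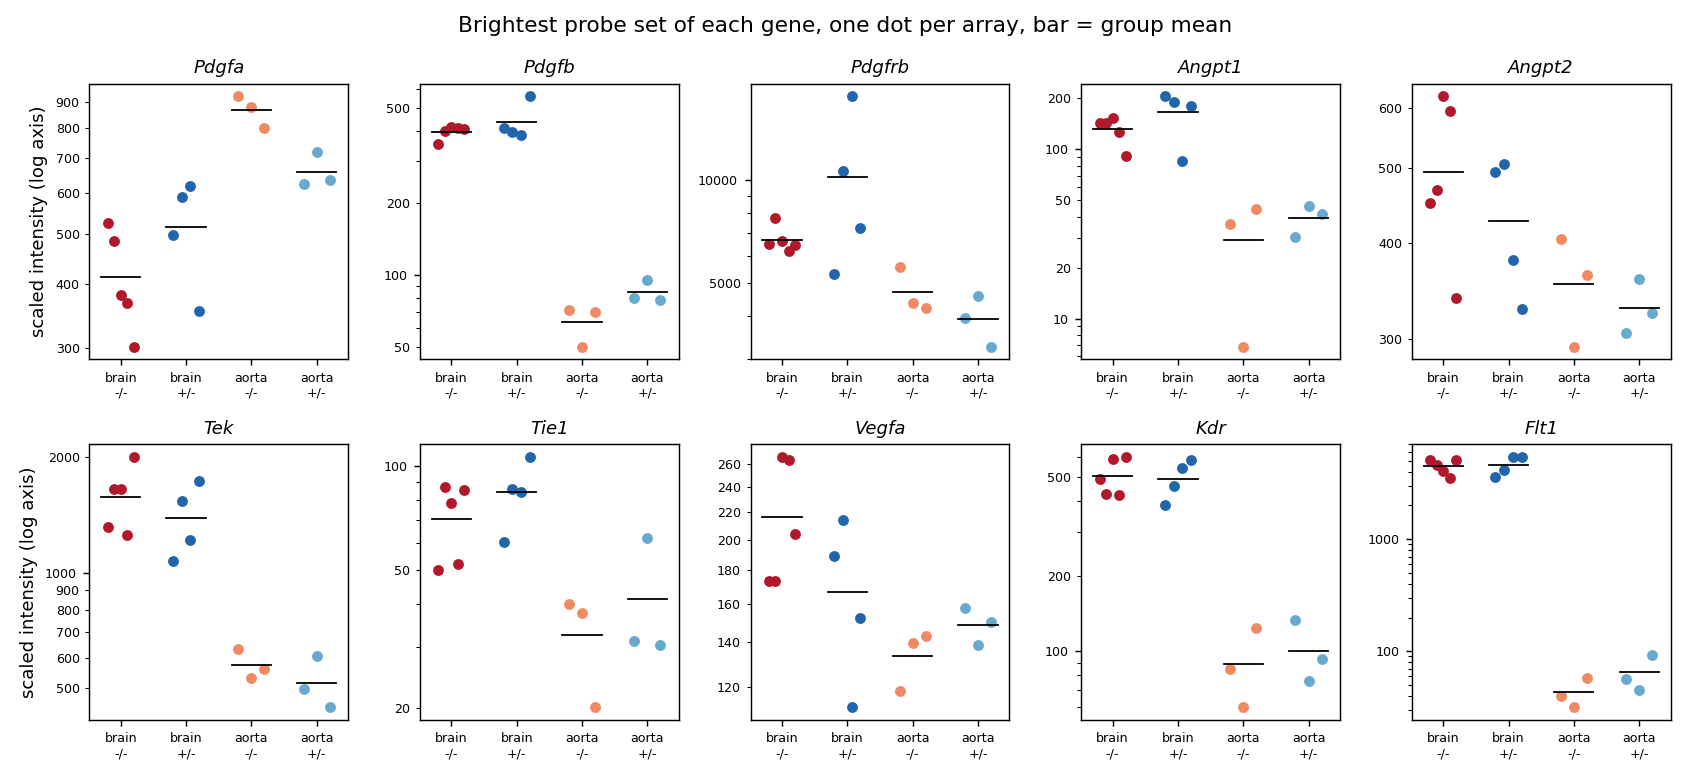
Scaled intensity (log axis, a different range in each panel) at the brightest probe set of each of the 10 genes, 1 dot per array and a bar at the group mean, for brain cells and aorta explants of Notch3 -/- and Notch3 +/- mice. Pdgfb, Tek, Kdr, Angpt1 and Flt1 lie higher in every brain array than in every aorta array, while the genotypes overlap in brain in all 10 panels.

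Pdgfa, a PDGF ligand that acts through PDGFR-alpha, has 2 probe sets that gave different results. The second brightest read 305, 426, 361, 364 and 278 in Notch3 -/- brain arrays A, B, C, D and F, against 844, 765, 593 and 790 in Notch3 +/- arrays E, G, I and H. Every Notch3 -/- array lay below every Notch3 +/- array, with means of 346.9 ± 57.3 and 748 ± 108 (SD, n = 5 and 4). It fell 2.11-fold (log2 -1.08, SE 0.17, 95% interval -1.43 to -0.72, limma adjusted p = 0.0205). Among probe sets tested, 1.85% had arrays apart with Notch3 -/- lower. The call rests on the full set of arrays: with 1 array left out it held without B, E or I, and adjusted p was 0.0885 without G, 0.0691 without H, 0.0529 without A, 0.0502 without C, 0.0531 without D and 0.0514 without F, with log2 between -1.18 and -1.005.

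The brightest Pdgfa probe set read 524, 484, 381, 367 and 303 in Notch3 -/- brain arrays A, B, C, D and F, against 496, 590, 354 and 620 in Notch3 +/- arrays E, G, I and H. Here the genotypes overlapped, and the difference was log2 -0.31 (SE 0.20, 95% interval -0.74 to 0.12, adjusted p = 0.655). The intervals of the 2 probe sets overlapped only between -0.74 and -0.72. No source used here says which transcripts each probe set reads. The summed mural markers, given above, were likewise lower in every Notch3 -/- brain array, and the summed fibroblast markers were above every Notch3 +/- array in 4 of the 5, and the part of either in the Pdgfa difference was not tested.

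In aorta neither Pdgfa probe set passed between genotypes. The brightest read 924, 882 and 800 in Notch3 -/- arrays 5558, 5559 and 6167, against 626, 720 and 634 in Notch3 +/- arrays 5556, 5561 and 6166. The genotypes did not overlap, with Notch3 -/- above (log2 0.39, SE 0.10, unadjusted p = 0.00316), but the difference did not pass after adjustment (limma adjusted p = 0.848). The second probe set read 699, 699 and 559 in Notch3 -/- aorta, against 493, 773 and 616 in Notch3 +/- aorta (log2 0.07, adjusted p = 0.999). The test of the brain genotype effect minus the aorta genotype effect gave log2 -1.15 (SE 0.25, 95% interval -1.67 to -0.63, unadjusted p = 0.000203, adjusted p = 0.223) at the second probe set and -0.70 (adjusted p = 0.990) at the brightest. Neither passed, so the genotype effects on Pdgfa were not shown to differ between tissues.

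**Figure D2:**
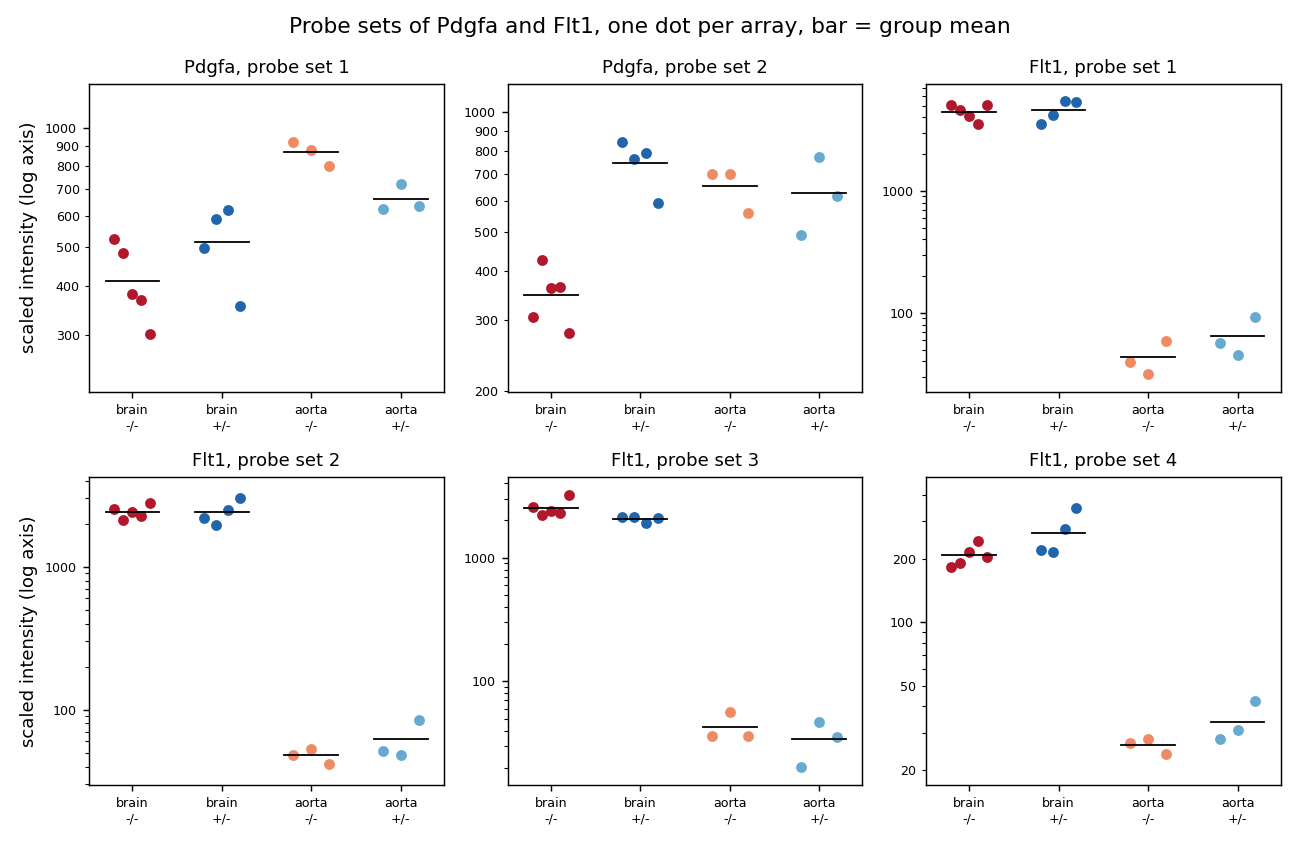
Scaled intensity (log axis) at the 2 probe sets of Pdgfa and the 4 of Flt1, numbered by brightness, 1 dot per array and a bar at the group mean, for each tissue and genotype. At the second Pdgfa probe set the Notch3 -/- brain arrays (278 to 426) lie below all Notch3 +/- brain arrays (593 to 844), while at the first they overlap.

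Pdgfb, the ligand that endothelium sends to mural cells, read 355, 403, 415, 411 and 410 in Notch3 -/- brain arrays A, B, C, D and F, against 414, 397, 561 and 384 in Notch3 +/- arrays E, G, I and H. Array I read above all the others and array A below them, with the remaining 7 between 384 and 415 (log2 -0.12, 95% interval -0.45 to 0.21, adjusted p = 0.842). In aorta it read 71.3, 50.3 and 70.0 in Notch3 -/- arrays, against 80.5, 95.4 and 78.6 in Notch3 +/- arrays, without overlap (log2 -0.34, SE 0.16, limma adjusted p = 0.999). Across groups Notch3 +/- brain stood first, Notch3 -/- brain second with overlapping arrays, then Notch3 +/- aorta and Notch3 -/- aorta, each apart from its neighbour above. Its dim probe set lay between 5.14 and 50.8 over all arrays and was in no test.

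Pdgfrb, the receptor of PDGF-B and a defining gene of mural cells, read 6509, 7738, 6633, 6219 and 6454 in Notch3 -/- brain arrays A, B, C, D and F, against 5321, 10678, 7272 and 17637 in Notch3 +/- arrays E, G, I and H. The Notch3 -/- arrays lay within the wide range of the Notch3 +/- arrays, and array H was the highest of all 15. The difference was log2 -0.46 (SE 0.27, 95% interval -1.04 to 0.11, adjusted p = 0.611), and log2 -0.15 without array H (adjusted p = 0.866) but -0.73 without array E (adjusted p = 0.285). Array H also had the highest summed mural markers (88428, against 57124 to 62571 in the other Notch3 +/- brain arrays) and the brightest single value on any array (46307, next 30222). The dimmer probe set read 43.9 to 83.9 in Notch3 -/- brain and 45.8 to 182 in Notch3 +/- brain (log2 -0.64, adjusted p = 0.537). In aorta the bright probe set read 5561, 4363 and 4219 in Notch3 -/- arrays, against 3968, 4584 and 3263 in Notch3 +/- arrays (log2 0.26, adjusted p = 0.999).

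Angpt1, the activating Tie2 ligand, read 142, 143, 154, 126 and 91.3 in Notch3 -/- brain arrays A, B, C, D and F, against 206, 191, 180 and 85.0 in Notch3 +/- arrays E, G, I and H. Array H fell below all Notch3 -/- arrays and the other 3 lay above them (log2 -0.26, 95% interval -0.76 to 0.25, adjusted p = 0.777; log2 -0.52 without H, adjusted p = 0.443). Angpt2, the context-dependent antagonist, read 451, 469, 621, 593 and 339 in Notch3 -/- brain, against 494, 506, 328 and 379 in Notch3 +/- brain. Its genotypes overlapped (log2 0.20, 95% interval -0.23 to 0.62, adjusted p = 0.796). In aorta Angpt2 read 293 to 404 in Notch3 -/- and 306 to 359 in Notch3 +/- arrays (log2 0.09), and Angpt1, at 6.83 to 44.2 and 30.5 to 46.2, was under the brightness filter there.

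Tek, the gene of Tie2, read 1311, 1648, 1651, 1256 and 2003 in Notch3 -/- brain arrays A, B, C, D and F, against 1072, 1541, 1737 and 1214 in Notch3 +/- arrays E, G, I and H. The ranges overlapped (log2 0.18, 95% interval -0.22 to 0.58, adjusted p = 0.801), as they did in aorta at 632, 529 and 561 in Notch3 -/- and 498, 605 and 445 in Notch3 +/- arrays (log2 0.16, adjusted p = 0.999). Tie1, the second Tie receptor, which modulates Tie2, was dim, at 50.2 to 87.3 in Notch3 -/- brain and 60.4 to 106 in Notch3 +/- brain (log2 -0.22, adjusted p = 0.788). It was under the filter in aorta.

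Vegfa, the main VEGF ligand, read 173, 173, 267, 264 and 204 in Notch3 -/- brain arrays A, B, C, D and F, against 189, 214, 152 and 112 in Notch3 +/- arrays E, G, I and H. Arrays C and D lay above all Notch3 +/- arrays and the rest within their range (log2 0.36, 95% interval -0.08 to 0.80, adjusted p = 0.613). In aorta it read 118, 140 and 143 in Notch3 -/- arrays, against 158, 139 and 150 in Notch3 +/- arrays (log2 -0.14, adjusted p = 0.999). A second, dimmer probe set ranged from 7.93 to 102 in Notch3 -/- brain and from 7.12 to 141 in Notch3 +/- brain, too wide to resolve a difference (95% interval -1.23 to 1.04). Vegfa is a target of the hypoxia response, and of 17 hypoxia-response genes tested in brain none was called between genotypes by limma, with 4 at an unadjusted p under 0.05. Over all probe sets tested in brain those shares were 0.142% and 9.39%.

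Kdr read 492, 426, 588, 421 and 601 in Notch3 -/- brain arrays A, B, C, D and F, against 385, 458, 582 and 543 in Notch3 +/- arrays E, G, I and H. Its means, 506 ± 85.9 and 492 ± 88.2, lay within the spread of either group (log2 0.04, 95% interval -0.33 to 0.41, adjusted p = 0.964). In aorta it read 84.7, 59.6 and 123 in Notch3 -/- arrays, against 133, 76.0 and 93.0 in Notch3 +/- arrays (log2 -0.16, adjusted p = 0.999).

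Flt1 was read by 4 probe sets that did not move alike between genotypes in brain. The brightest read 5091, 4584, 4094, 3544 and 5048 in Notch3 -/- arrays A, B, C, D and F, against 3547, 4157, 5397 and 5413 in Notch3 +/- arrays E, G, I and H (log2 -0.04, 95% interval -0.42 to 0.34, adjusted p = 0.965). The third read 2569, 2213, 2402, 2303 and 3214 in Notch3 -/- brain, against 2137, 2133, 2076 and 1921 in Notch3 +/- brain. There all Notch3 -/- arrays lay above all Notch3 +/- arrays, as in 1.46% of probe sets tested, but the difference did not pass (log2 0.28, SE 0.15, adjusted p = 0.579). The second and the fourth gave log2 0.01 (adjusted p = 0.993) and -0.31 (adjusted p = 0.598), so 2 of the 4 estimates were above 0 and 2 below. In aorta the brightest read 39.8, 31.7 and 58.2 in Notch3 -/- arrays, against 56.7, 45.1 and 92.7 in Notch3 +/- arrays (log2 -0.43, SE 0.25, adjusted p = 0.999).

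In aorta as a whole, 0 of 8 genes tested at the brightest probe set passed, beside a background of 0% called by limma, with 4.35% at an unadjusted p under 0.05. Of the 8, Pdgfa alone had an unadjusted p under 0.05, and 2 had arrays apart, Pdgfa higher and Pdgfb lower in Notch3 -/-, where 4.72% of all probe sets had arrays apart as higher and 4.75% as lower. For the difference between the tissues' genotype effects 0 of 10 genes and 0 of 15 probe sets passed by limma, beside 0.0178% of all probe sets, with 2 of the 15 (both of Pdgfa) and 4.76% of all at an unadjusted p under 0.05. In simulated data, with the same pooled spread, 24% of 2-fold changes were recovered in aorta and 23% in that difference. Those simulations gave 104 and 106 calls, against 0 and 4 in the real arrays, so recovery at the real cutoffs is not known.

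**Figure D3:**
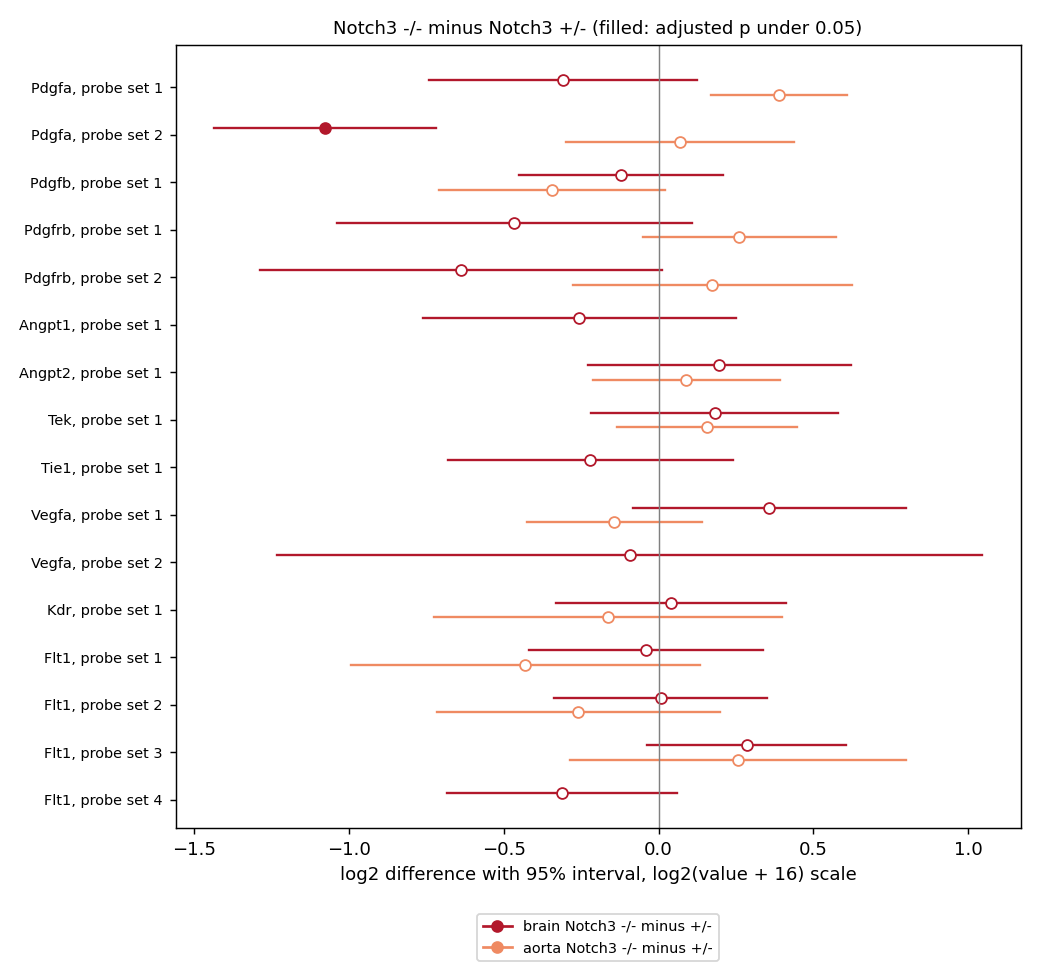
Notch3 -/- minus Notch3 +/- difference, on the log2(value + 16) scale with 95% interval, at each tested probe set of the 10 genes, in brain (dark) and aorta (light), with filled points where adjusted p was under 0.05. The second Pdgfa probe set in brain (log2 -1.08) is the single filled point.

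Other genes of the 3 pathways, and sprouting genes of endothelium, gave no call between genotypes. In brain 0 of 19 other PDGF pathway genes, 0 of 7 of the angiopoietin-Tie pathway, 0 of 18 of the VEGF pathway and 0 of 10 sprouting genes passed by limma, with 1, 0, 4 and 0 at an unadjusted p under 0.05. Over all probe sets tested in brain 0.142% were called and 9.39% had an unadjusted p under 0.05. At that share of calls, lists this short would mostly hold none. Median differences of the 4 lists were log2 -0.02, -0.10, 0.09 and 0.04. Those of smallest p in the VEGF pathway were Pgf, a ligand of VEGFR1, at 115 ± 24.9 in Notch3 -/- brain and 218 ± 66.2 in Notch3 +/- brain (log2 -0.81, adjusted p = 0.234), and Vegfd, a ligand of VEGFR3, at 380 ± 78.5 and 233 ± 14.3 (log2 0.65, adjusted p = 0.248). The small heat shock protein Hspb1 had log2 -0.68 (adjusted p = 0.248) and the co-receptor Nrp1 log2 0.45 (adjusted p = 0.382). Vegfd read 696 ± 98.6 in Notch3 -/- aorta and 470 ± 41.2 in Notch3 +/- aorta (log2 0.55, limma adjusted p = 0.674). In aorta none of 20, 7, 17 and 8 genes of the 4 lists passed by limma, with 0, 2, 1 and 0 at an unadjusted p under 0.05. Over all probe sets tested in aorta 0% were called and 4.35% had an unadjusted p under 0.05. In the PDGF pathway the adaptor Nck1 had the smallest p in brain (log2 0.47, adjusted p = 0.431).

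Between tissues the receptors Flt1, Kdr and Tek and the ligand Pdgfb were higher in the brain cells in both genotypes. Among Notch3 -/- arrays 8 of 10 genes were higher in brain and 1 lower at the brightest probe set, beside a background of 33.6% higher and 28.9% lower (62.5% in all). Among Notch3 +/- arrays 7 were higher and 0 lower, beside 26.5% and 25.2% (51.8% in all). The brain arrays lay wholly above the aorta arrays for 8 of the 10 genes in Notch3 -/- and 6 in Notch3 +/- arrays (31.7% and 28.6% of all probe sets), and wholly below for 1 in each (28.3% and 27.6%). The median over the 10 was log2 1.12 and 1.31, against 0.11 and 0.07 over all probe sets tested. Angpt1 and Tie1, also called higher in both, were under the brightness filter within aorta and passed it here through their brain arrays. Over the 8 genes above the filter within each tissue, 6 were higher and 1 lower among Notch3 -/- arrays, and 5 and 0 among Notch3 +/- arrays. With no filter the counts over all 10 were again 8 and 1, and 7 and 0, with Angpt1 (adjusted p = 0.000423 and 0.00160) and Tie1 (0.0182 and 0.0441) called. These counts take Pdgfrb as higher at its bright probe set, although its probe sets oppose; without Pdgfrb and over the genes above the filter within each tissue they were 5 and 1 of 7, and 4 and 0 of 7.

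Flt1 had the largest difference of the 10 genes in both genotypes. Its brightest probe set averaged 4472 ± 658 in Notch3 -/- brain and 43.2 ± 13.6 in Notch3 -/- aorta (log2 6.25, SE 0.17, adjusted p = 5.58e-12), and 4629 ± 931 in Notch3 +/- brain and 64.8 ± 24.9 in Notch3 +/- aorta (log2 5.87, SE 0.23, adjusted p = 1.75e-08). Those next in brightness gave log2 5.25 and 5.44 in Notch3 -/- arrays and 4.98 and 5.41 in Notch3 +/- arrays, all called. The fourth gave log2 2.40 and 2.48 against aorta means of 26.2 in Notch3 -/- and 33.7 in Notch3 +/- arrays, which are under the brightness filter within aorta, so it entered this test through its brain arrays (adjusted p = 1.97e-07 and 1.72e-05 with no filter). Kdr averaged 506 ± 85.9 in brain and 89.3 ± 32.2 in aorta of Notch3 -/- mice (log2 2.34, adjusted p = 2.80e-07), with log2 2.14 (adjusted p = 1.27e-05) in Notch3 +/- arrays. Tek was higher by log2 1.41 and 1.39 in Notch3 -/- and Notch3 +/- arrays (adjusted p = 3.58e-06 and 0.000168). Tie1 was higher by log2 0.83 in both (adjusted p = 0.00683 and 0.0189), and its call among Notch3 +/- arrays was lost without aorta array 5556 (adjusted p = 0.0790) or 6166 (0.0848). The summed endothelium markers given above were higher in every brain array than in every aorta array too, and their part in these differences was not tested. Those sums lean on genes that were bright in brain and nearly absent in aorta, such as Slco1a4. They are therefore no measure of the amount of endothelium alone.

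Of the ligands, Pdgfb was higher in brain by log2 2.39 among Notch3 -/- arrays (SE 0.15, adjusted p = 1.14e-08) and by 2.16 among Notch3 +/- arrays (adjusted p = 3.93e-06), with no overlap. The dim Pdgfb probe set, in no test, gave log2 -0.06 and 0.09. A median over both probe sets gave log2 1.16 and 1.12. Angpt1 was higher by log2 1.81 and 1.66 (adjusted p = 8.52e-05 and 0.000551). Angpt2 did not pass, at log2 0.45 (95% interval 0.04 to 0.85, adjusted p = 0.0534) and 0.34 (-0.07 to 0.75, adjusted p = 0.148), although without Notch3 -/- brain array F it did (log2 0.57, adjusted p = 0.00930). Vegfa was higher in brain among Notch3 -/- arrays (log2 0.62, adjusted p = 0.00787), while among Notch3 +/- arrays the difference was log2 0.12 (adjusted p = 0.674). The test of that difference between genotypes is the one given above as brain minus aorta genotype effect, and for Vegfa it was log2 0.50 (95% interval -0.09 to 1.09, adjusted p = 0.997). Pdgfa was lower in brain among Notch3 -/- arrays at both probe sets (log2 -1.07, adjusted p = 9.12e-05, and -0.89, adjusted p = 0.000223), and among Notch3 +/- arrays had log2 -0.38 (adjusted p = 0.139) and 0.26 (adjusted p = 0.281).

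Pdgfrb had probe sets of opposite sign. The bright one was higher in brain by log2 0.51 among Notch3 -/- arrays (adjusted p = 0.00326) and by 1.24 among Notch3 +/- arrays (adjusted p = 0.0104), and the dim one was lower in brain among Notch3 -/- arrays (log2 -1.30, adjusted p = 0.000188) with log2 -0.49 (adjusted p = 0.259) among Notch3 +/- arrays. With quantile normalization the bright probe set's difference among Notch3 -/- arrays was log2 0.14 (adjusted p = 0.308), so no direction is given for the gene there.

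**Figure D4:**
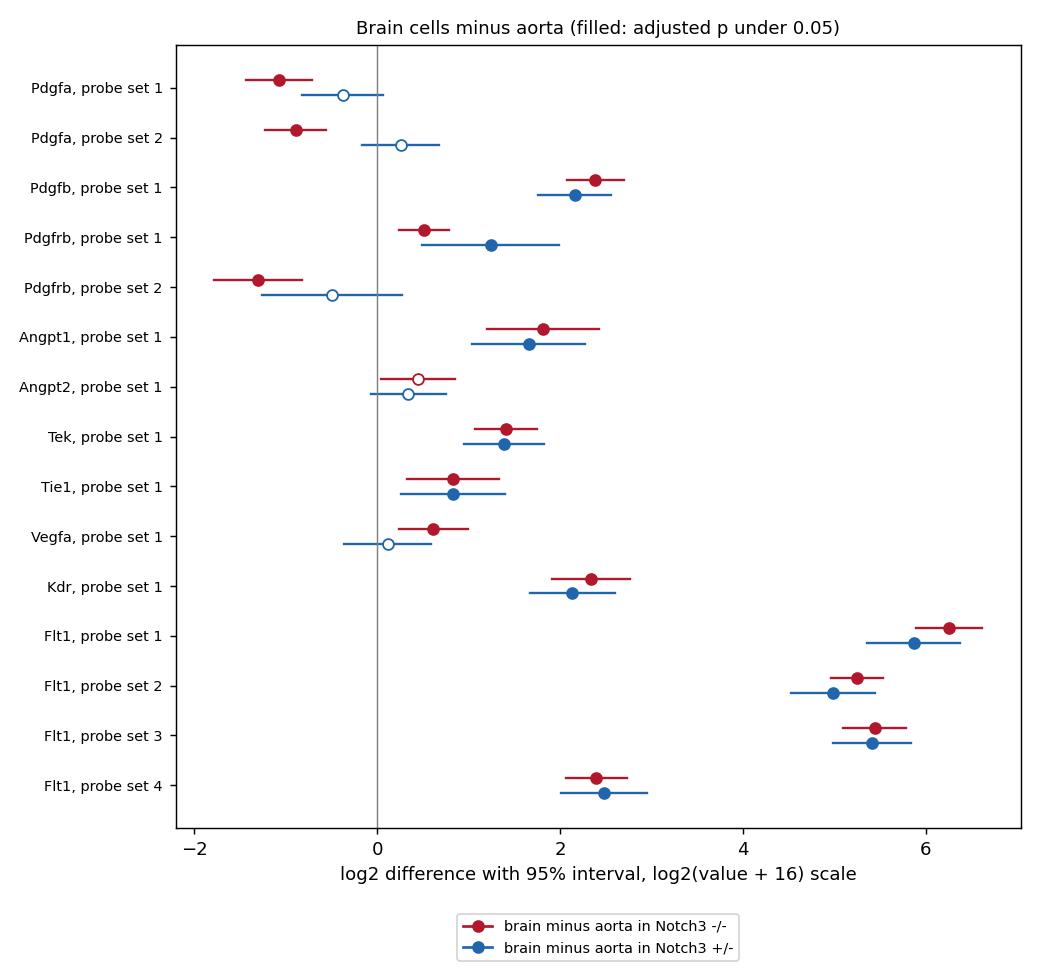
Brain cells minus aorta difference on the log2(value + 16) scale with 95% interval at each tested probe set, in Notch3 -/- (red) and Notch3 +/- (blue) arrays, with filled points where adjusted p was under 0.05. Flt1 lies farthest to the right (log2 6.25 and 5.87), while the 2 probe sets of Pdgfrb fall on either side of 0.

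Other genes of these pathways were set beside the shares of all probe sets given above (33.6% higher and 28.9% lower among Notch3 -/- arrays, 26.5% and 25.2% among Notch3 +/- arrays), and the pathways were not tested against each other. Of 18 other VEGF pathway genes tested, 12 were higher and 2 lower in brain among Notch3 -/- arrays, and 11 and 2 among Notch3 +/- arrays, with medians of log2 1.07 and 0.79. The count was 11 and 2 of 17, and 10 and 2 of 17, over those above the brightness filter within each tissue. The ligand Vegfc averaged 2388 ± 283 in Notch3 -/- brain and 203 ± 53.2 in Notch3 -/- aorta (log2 3.48, adjusted p = 8.24e-10), its receptor Flt4 610 ± 105 and 95.1 ± 17.3 (log2 2.49), and the kinase Prkcb 930 ± 166 and 84.9 ± 9.79 (log2 3.21). Of 20 other PDGF pathway genes, 2 were higher and 12 lower in Notch3 -/- brain, and 3 and 9 in Notch3 +/- brain (2 and 11, and 3 and 8, of 19 above the filter within each tissue). Pdgfra, the alpha receptor and one of the fibroblast markers, averaged 83.2 ± 22.0 in Notch3 -/- brain and 821 ± 77.6 in Notch3 -/- aorta (log2 -3.10, adjusted p = 1.11e-08). Pdgfrl was lower as well (log2 -2.17 and -2.42 in Notch3 -/- and Notch3 +/- arrays), whereas the adaptor Gab1 was higher in Notch3 -/- brain (log2 1.64). Among 7 angiopoietin-Tie genes tested in Notch3 -/- arrays 2 were higher and 3 lower, and of 9 in Notch3 +/- arrays 2 and 2, near the shares of all probe sets. Over the 6 above the filter within each tissue the counts were 2 and 2, and 1 and 1. Ptprb, the endothelial phosphatase that acts on Tie2, was higher by log2 1.86 and 1.68, and Svep1, a matrix protein, lower (log2 -3.83 and -3.48). Svep1 averaged only 31.4 ± 24.3 in Notch3 -/- brain and 34.4 ± 16.2 in Notch3 +/- brain, and entered these tests through its aorta arrays. Sprouting genes were higher in 9 of 10 cases in Notch3 -/- brain and in 7 of 10, with 1 lower, in Notch3 +/- brain, or 7 of 8, and 6 of 8 with 1 lower, above the filter within each tissue; Apln, the apelin ligand of tip cells, was higher by log2 1.16 and 1.05. Fibroblast markers were summed at 47516 to 50451 in Notch3 -/- aorta, above every brain array, and their part in the PDGF pathway differences was not tested.

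Within brain, the 10 genes were set against the endothelium and mural markers over the 9 arrays, after taking each array's deviation from its genotype mean (20 relations, permutation tests over all orders of the arrays, Benjamini-Hochberg adjustment). The orders mixed both genotypes although deviations were centred within each, so these p-values are approximate and may be too small. Flt1 followed the endothelium markers, with Pearson r = 0.905 (permutation p = 0.000807, adjusted 0.0161) and Spearman rho = 0.767 (permutation p = 0.0214, adjusted 0.170), and r = 0.728 without arrays E and D. Angpt2 ran the other way, with r = -0.864 (permutation p = 0.00347, adjusted 0.0347) and rho = -0.833 (permutation p = 0.00827, adjusted 0.165), and r = -0.929 without the same arrays. For Tek r was 0.737 (permutation p = 0.0280, adjusted 0.187), for Kdr 0.658 and for Tie1 0.656. These dropped to 0.440, 0.222 and 0.212 without E and D, so the r values rest on those arrays. By rank, rho was 0.700 for Tek, 0.750 for Kdr and 0.617 for Tie1 (permutation p = 0.0433, 0.0255 and 0.0857, adjusted 0.216, 0.170 and 0.323). Pdgfrb had r = 0.668 with the mural markers (permutation p = 0.0490, adjusted 0.213) and 0.499 without H and A. The points share arrays and scaling, and with 5 and 4 arrays no r is given within a genotype.

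**Figure D5:**
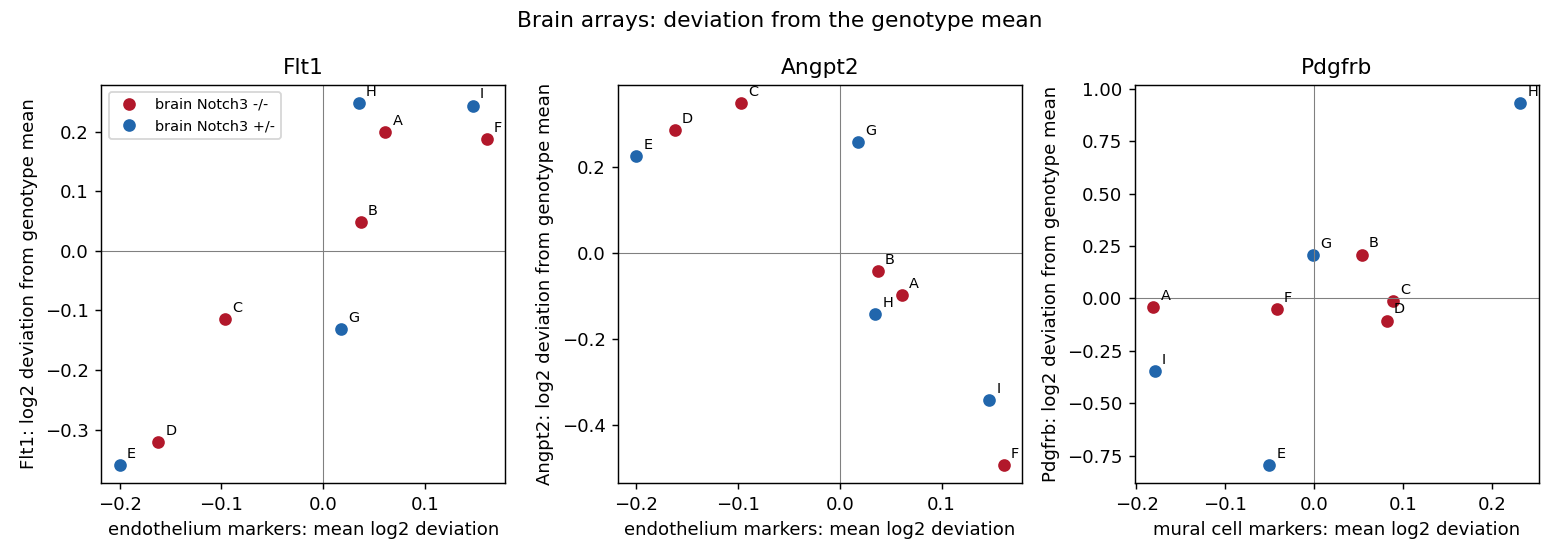
Deviation of Flt1, Angpt2 and Pdgfrb from the genotype mean (log2) in each of 9 brain arrays, against the mean deviation of endothelium markers (left and middle) or mural markers (right), with Notch3 -/- arrays in red and Notch3 +/- arrays in blue. Flt1 climbs (r = 0.905) and Angpt2 descends (r = -0.864) along the endothelium axis, and array H stands at the top right for Pdgfrb.

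The genes most like Pdgfrb, Tek, Kdr and Vegfa were ranked by Pearson r of the same deviations over the 9 brain arrays, as a description, since 22519 probe sets were searched with few arrays. Pmepa1 (r = 0.975), Mybbp1a, BC004004, Elmod3 and Tcta (0.961) were nearest to Pdgfrb. Nearest to Tek were Afdn (r = 0.979), Bche, Cav2, Mtmr2 and Zfp617 (0.943). For Kdr they were Abca3 (r = 0.982), Ddhd1, Brpf1, Sufu and Snx10 (0.950), and for Vegfa Rnf13 (r = 0.984), Zfp445, Inpp5b, Far1 and Cntrl (0.955).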

How the data were processed

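The authors deposited a linear intensity for each probe set after scaling every array to 150, per the series' design text; all 15 arrays had a 2% trimmed mean of 150. No source used here names the summarising algorithm, detection calls or a genome build. The number of arrays limits the precision. Groups came from sample titles, and no replicate name is shared between groups. Within a group arrays correlated at r 0.932 to 0.981 and at most 0.00665% of values were identical, so none was a copy of another. Each array counted as 1 replicate, although this does not show that the aorta arrays are separate mice. Of 45101 probe sets, 34958 had 1 symbol, 932 several and 9211 none; 34754 symbols were updated through Entrez identifiers in RefSeq.

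The 64 control probe sets were left out. In each fit the brighter part of the rest (22519 probe sets, mean log2(value + 16) no lower than the median) was tested two-sided at 5% after Benjamini-Hochberg adjustment. The tool was limma 3.58.1 under R 4.3.3, with lmFit and then eBayes using an intensity trend. Fits used 9 brain, 6 aorta, 8 Notch3 -/- or 7 Notch3 +/- arrays, or all 15 for the difference of genotype effects. Each fit was first tested on simulated arrays built from real means and from spreads pooled over all groups. A gene's brightest probe set over all arrays stood for it in counts. Every member probe set is described, up to 4 genes per list by smallest p, and 5 by likeness. Members and lists were chosen with earlier results of these data known. Alternatives were other pseudocounts, quantile normalization, no filter, no trend, array weights, 1 common fit, a median over probe sets, the 55xx and 61xx aorta names as a block, and leaving out each array.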

Additional observations from a re-analysis of the deposited data

Results flagged for a closer look

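Within groups of 4 or 5 arrays, 4 of 38 sets of values held 1 array far from the rest by Dixon's ratio, which chance does in about 1 in 20. Pdgfb read 355 in Notch3 -/- brain array A, the lowest of its group, where the others read 403 to 415. Angpt1 read 85.0 in Notch3 +/- brain array H, where the others read 180 to 206. The other 2 were dim probe sets left out of the tests. That of Angpt1 read 27.4 in Notch3 -/- brain array A and at most 5.27 in the other 4, and that of Angpt2 read 5.03 in Notch3 -/- brain array F and 66.5 to 95.2 in the other 4.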

How the results depend on the processing

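No paired analysis was possible because the groups share no replicate names. The 10 genes kept their counts of calls at the brightest probe set within 1.5 times under every alternative run, 1 of which, counting only genes above the filter within each tissue, was chosen after seeing the data (7 called in Notch3 -/- and 5 in Notch3 +/- arrays between tissues, against 9 and 7). Over all probe sets in brain the count of 1 (Pdgfa) ranged from 0 to 1 with 1 array left out, and remained 1 under the other alternatives. Near-zero estimates, none of them called, changed sign: Flt1 in brain with array weights (log2 0.0091), and for the difference of genotype effects Angpt1 with a pseudocount of 64 (-0.032) or array weights (-0.0033), Tek with array weights (-0.031) and Tie1 with a pseudocount of 1 (0.046). Taking the median over probe sets turned Pdgfrb, brain minus aorta in Notch3 -/-, to -0.39, since its 2 probe sets oppose. With 1 array left out, ranges crossed 0 for Kdr (-0.068 to 0.12) and Flt1 (-0.16 to 0.043) in brain, for Angpt2 (-0.0083 to 0.21), Kdr (-0.39 to 0.052), Angpt1 (-0.67 to 0.024), Tie1 (-0.35 to 0.026) and the second Pdgfa probe set (-0.087 to 0.23) in aorta, for Angpt1 (-0.28 to 0.42), Angpt2 (-0.016 to 0.23), Tek (-0.092 to 0.14), Tie1 (-0.25 to 0.13) and Kdr (-0.013 to 0.43) in the difference of genotype effects, and for Vegfa (-0.0050 to 0.28) in brain minus aorta among Notch3 +/- arrays. The cause was not tested. Angpt2 passed between tissues among Notch3 -/- arrays with quantile normalization (adjusted p = 0.0261) or array weights (0.0250), and among Notch3 +/- arrays with array weights (0.0278); Pdgfrb lost its call among Notch3 -/- arrays with all arrays in 1 fit (adjusted p = 0.0958).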
